A study of Lolium arundinaceum with 18 samples.

Results

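Leaves of tall fescue (Lolium arundinaceum, also called Festuca arundinacea) were sequenced to compare foliar sprays of silicon nanoparticles and cellulose nanocrystals (CNCs). CNCs are rod-shaped crystalline particles cut out of cellulose fibres. The question asked here was whether the CNC spray acted differently on droughted and on watered plants. The measure described here was the interaction of CNCs with drought, (DS_CNCs minus DS) minus (CNCs minus CK) on the log2 scale. It used 12 of the 18 libraries of the series, 3 in each of 4 groups. DS_CNCs plants were held at 35 to 45% of field capacity and received 100 mg/L CNCs, DS plants were held at the same soil water without particles, CNCs plants were held at 65 to 75% of field capacity and received 100 mg/L CNCs, and CK plants were held at 65 to 75% without particles. All were greenhouse pot plants sampled after 20 days of treatment. A negative interaction means that CNCs lowered a transcript more, or raised it less, under drought than with water, and a positive one means the opposite. DS_CNCs with DS is called the drought pair and CNCs with CK the watered pair.

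Limits of these groups as a model come from the study's methods. The surfactant Tween-20 (0.05%) was described for the particle solutions, CK was sprayed with double-distilled water and no spray was named for DS, so effects of the crystals, the surfactant and the spraying cannot be told apart. The methods named an Omega plant RNA kit and the labels Trizol for the RNA. The methods state that treatments were done in 3 repeats and name 3 biological replicates for the leaf RNA of qRT-PCR, but not which pots gave each sequenced library, so p-values measure the spread between these samples. Tall fescue is an outcrossing polyploid and no genome was used by the authors. Each unigene was the longest transcript of a Trinity assembly cluster, and copies of 1 gene can be split over several unigenes or share reads, so values of close relatives such as HSP70 or PAL unigenes are uncertain singly. The tissue was leaf, and fewer cells of a type and less RNA per cell cannot be told apart in it.

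The 12 libraries held 16663054 to 26102122 estimated counts (median 18581490). One library, CK 3, stood apart from the pattern of replicates. Among 3799 unigenes where CK 1 and CK 2 differed by at least 8-fold, CK 3 lay between them at 3740 (98.4%), whereas the share for the other 11 libraries was 3.22 to 79.5%. Its correlations with CK 1 and CK 2 across unigenes were 0.943 and 0.944, against 0.850 between CK 1 and CK 2. Whether CK 3 came from plants of its own or holds RNA of the other CK samples was not tested, and the p-values count it as a separate sample. Leaf identity was as labelled: antenna proteins of the chloroplast summed to 34079 to 40209 TPM in DS_CNCs, 37794 to 47532 TPM in DS, 20861 to 24838 TPM in CNCs and 36022 to 57430 TPM in CK, whereas 13 root markers summed to 54.3 to 240 TPM. Here and below, the summed level of a list is over all its unigenes in the table, tested or not.

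In a leaf that loses water, proteins unfold and chaperones of the HSP70, HSP90 and small HSP families are made to hold and refold them, under control of heat stress transcription factors (HSFs). Signals of wounding, wall damage and pathogens pass through receptor kinases, calcium, jasmonate and WRKY factors and end in the phenylpropanoid pathway, which starts at phenylalanine ammonia-lyase (PAL) and supplies lignin and phenolic esters. Antenna proteins, which harvest light for photosynthesis, are commonly lowered in stressed leaves.

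Calls rested on edgeR's quasi-likelihood test and required a Benjamini-Hochberg adjusted p below 0.05 together with a log2 value above 2 in size. Of 51194 unigenes tested, 353 (0.690%) had a positive and 1132 (2.21%) a negative interaction, 1485 (2.90%) in all. Negative interactions therefore made up 76.2% of the calls. The median interaction over all tested unigenes was -0.06. In the drought pair alone, 2036 unigenes (3.98%) rose and 1922 (3.75%) fell in DS_CNCs relative to DS. In the watered pair, 160 (0.313%) rose and 38 (0.0742%) fell in CNCs relative to CK. Drought without particles (DS over CK) raised 1153 unigenes (2.25%) and lowered 309 (0.604%), and drought in sprayed plants (DS_CNCs over CNCs) raised 23 (0.0449%) and lowered 100 (0.195%), both read from libraries that also enter the interaction.

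The count of calls depended on single libraries. Without CK 3, 58051 unigenes were tested and 214 were called, 73 with a positive (0.126%) and 141 with a negative (0.243%) interaction. Of those 214, 212 were also called with all 12 libraries. Without DS_CNCs 3, 2485 were called. Leaving out any of CK 1, CK 2, CNCs 1, CNCs 2, CNCs 3, DS 1, DS 2, DS_CNCs 1 or DS_CNCs 2 gave 481 to 955 calls, and leaving out DS 3 gave 1668. A core of 199 unigenes, 62 positive and 137 negative, was called in all 12 such fits. Below, each main group of genes is given with its count without CK 3, and each named call with the libraries whose omission ended it.

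The usual form of a negative interaction was a crossing by sign. Both pairs enter the interaction, so the choice of calls itself favours this form and the ranks of groups given here. Of the 1132 unigenes, 1038 (91.7%) were lower in DS_CNCs than in DS and higher in CNCs than in CK by sign, 76 were lower in both pairs and 18 were higher in both. The drought pair was itself called in 628 of them and the watered pair in 78. DS had the highest mean TPM in 757 and CNCs in 344, while CK had the lowest in 602 and DS_CNCs in 529. Their median log2 interaction was -4.46 (quartiles -6.29 and -3.12), with medians of -2.59 in the drought pair and 1.62 in the watered pair. A group with 0 counts occurred in 94 of them, and with such groups set to a floor of 3 counts over the group the median was -4.35. These unigenes were also better expressed and better described than all tested unigenes: 669 (59.1%) reached 10 TPM in a group, against 37.4% of all tested, and 261 (23.1%) had no description, against 44.8%.

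The 353 positive interactions mirrored this, under the same kind of choice. In 314 (89.0%) the unigene was higher in DS_CNCs than in DS and lower in CNCs than in CK by sign, 37 were higher in both pairs and 2 were lower in both. DS had the lowest mean in 310. The drought pair was called in 190 and the watered pair in 16. The median log2 interaction was 3.32, with medians of 2.24 under drought and -1.03 with water. No description was available for 169 (47.9%), near the 44.8% of all tested unigenes. A level of 10 TPM in a group was reached by 189 (53.5%), against 37.4% of all tested, so higher expression was shared by both directions. Only 15 negative and 1 positive unigenes were called in both pairs in opposite directions. Of those 15, 6 were chaperones, 1 was an HSF and 4 had no description. Over all 51194 unigenes, the changes of the drought and the watered pair, which share no library, had a correlation across unigenes of 0.343, a description only.

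**Figure D1:**
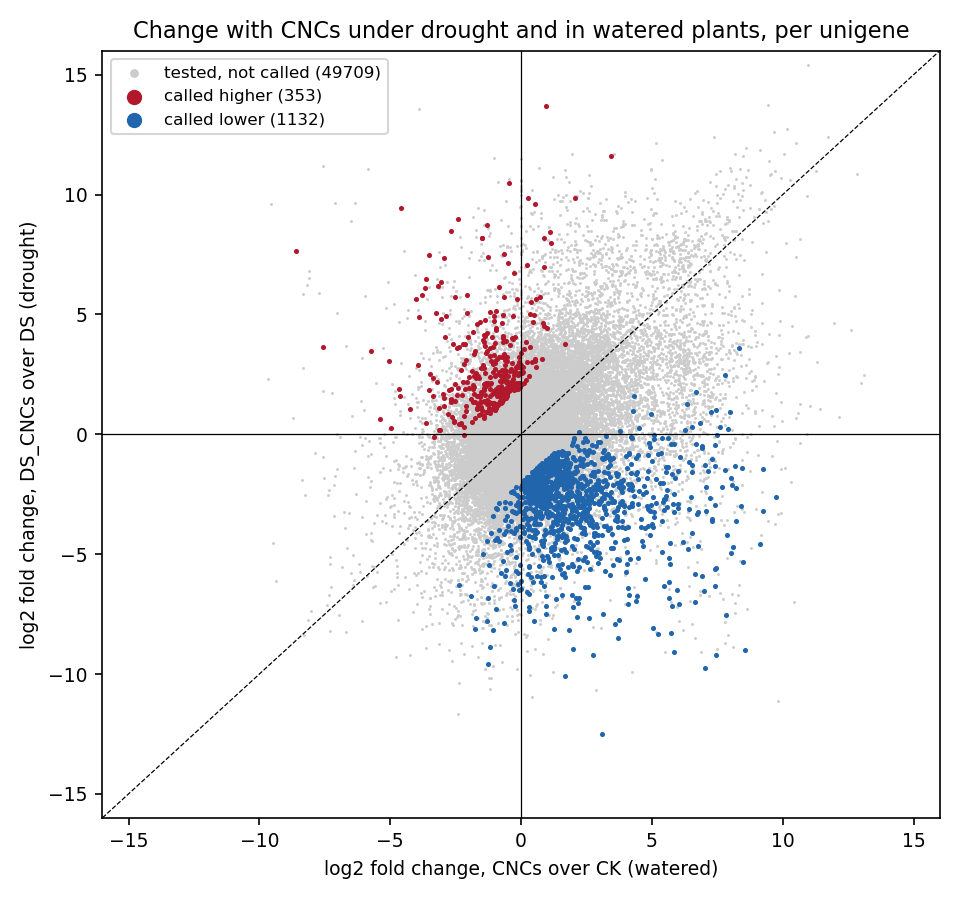
Change with CNCs in watered leaves (x axis, log2 of CNCs over CK) and in droughted leaves (y axis, log2 of DS_CNCs over DS), 1 point per tested unigene. The dashed line marks equal change in both. Both axes enter the interaction, so called points lie away from this line by choice. The 1132 unigenes with a called negative interaction (blue) lie mostly where CNCs lowered them under drought and raised them with water, the 353 with a positive one (red) mostly in the opposite corner, and all others are grey.

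Chaperones were the group with the most negative calls. Of 214 tested members, 51 had a called negative interaction and none a positive one, against 2.21% negative and 0.690% positive over all unigenes, and 171 were below 0. Their median log2 interaction was -1.59 (-1.32 with groups of 0 counts at the floor), with medians of -0.91 in the drought pair and 0.46 in the watered pair. Without CK 3, 22 remained called, and leaving out any other library gave up to 57. Their summed level was 5604 to 7082 TPM in DS_CNCs against 9311 to 12965 TPM in DS, and 8406 to 12410 TPM in CNCs against 5207 to 6064 TPM in CK. The libraries did not overlap within either pair, and DS_CNCs overlapped with CK.

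Most of the calls were HSP70, HSP90 and small HSP unigenes. HSP70, which binds exposed stretches of unfolded protein, had 19 of 36 members called and all 36 below 0 (median -3.87). HSP90, which matures kinases and receptors, had 8 of 21 called and all 21 below 0 (median -3.54). Small HSPs, which hold unfolded proteins without using ATP, had 8 of 20 called (median -3.92). J-domain proteins, which hand clients to HSP70, had 8 of 79 called with a median of -0.25. Co-chaperones had 3 of 12 called, chaperonins 2 of 12, Clp chaperones 2 of 12 and the luminal-binding proteins of the endoplasmic reticulum 0 of 5. Without CK 3 the calls were 11 for HSP70, 3 for HSP90, 2 for small HSPs and 3 for J-domain proteins.

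DN28213_c0_g1, a cytosolic HSP90.2, had 22.4, 28.4 and 66.4 TPM in DS_CNCs against 375, 408 and 219 TPM in DS, and 512, 259.6 and 317 TPM in CNCs against 4.87, 7.20 and 5.94 TPM in CK. All 3 CK libraries were under 8 TPM, both pairs were separate, and DS_CNCs stood between CK and the high groups DS and CNCs. Its log2 interaction was -9.09 ± 0.76 (adjusted p = 0.00241), here and below with its standard error, made of -3.24 (adjusted p = 0.00511) in the drought pair and 5.85 (adjusted p = 0.00705) in the watered pair. DN10941_c0_g1, an HSP70, had 27.6, 36.9 and 55.2 TPM in DS_CNCs against 263, 349 and 148 TPM in DS, and 225, 159 and 210.2 TPM in CNCs against 39.2, 38.7 and 27.5 TPM in CK. It crossed in the same way without overlap in either pair, and its log2 interaction was -5.27 ± 0.57 (adjusted p = 0.00291). DN9957_c0_g1, a constitutive-type HSP70 (HSC70), had 86.8, 52.7 and 227 TPM in DS_CNCs against 680.4, 939 and 461 TPM in DS, and 984, 438 and 746 TPM in CNCs against 54.7, 81.7 and 83.3 TPM in CK. This was the highest of these in TPM, again low in every DS_CNCs and CK library, with a log2 interaction of -5.73 ± 0.78 (adjusted p = 0.00599).

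DN7349_c0_g1, another HSP70, averaged 22.8 ± 6.64 TPM in DS_CNCs, 85.8 ± 27.9 TPM in DS, 57.9 ± 9.29 TPM in CNCs and 14.5 ± 5.88 TPM in CK (SD, n = 3 each), a log2 interaction of -3.88 ± 0.42 (adjusted p = 0.00291). DN17337_c0_g1, a J-domain protein described as DnaJ B8, had 20.6, 16.8 and 19.6 TPM in DS_CNCs against 75.2, 122 and 125 TPM in DS, and 81.1, 76.3 and 43.2 TPM in CNCs against 26.6, 21.8 and 23.5 TPM in CK. Its DS_CNCs libraries lay below CK as well as below DS. The log2 interaction was -3.79 ± 0.39 (adjusted p = 0.00291), with -2.65 in the drought pair and 1.14 in the watered pair. The FKBP62-like DN4496_c0_g1, a peptidyl-prolyl isomerase that partners HSP90, averaged 6.81 ± 1.11 TPM in DS_CNCs, 22.7 ± 3.27 TPM in DS, 24.4 ± 5.26 TPM in CNCs and 8.71 ± 0.815 TPM in CK, with a log2 interaction of -3.26 ± 0.33 (adjusted p = 0.00291), and its relative DN272_c0_g1 gave -2.19 ± 0.23 (adjusted p = 0.00291). Of these 7 calls, 6 held with each of the 12 libraries left out, and DN272_c0_g1 lost its call without DS 2, where its log2 interaction was under 2 in size (adjusted p = 0.0036). Not every abundant chaperone took part: the chloroplast ClpC2, DN937_c0_g1, averaged 369.8 ± 50.8 TPM in DS_CNCs, 291 ± 32.2 TPM in DS, 473 ± 86.8 TPM in CNCs and 437 ± 125 TPM in CK, with a log2 interaction of 0.19 (adjusted p = 0.733).

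**Figure D2:**
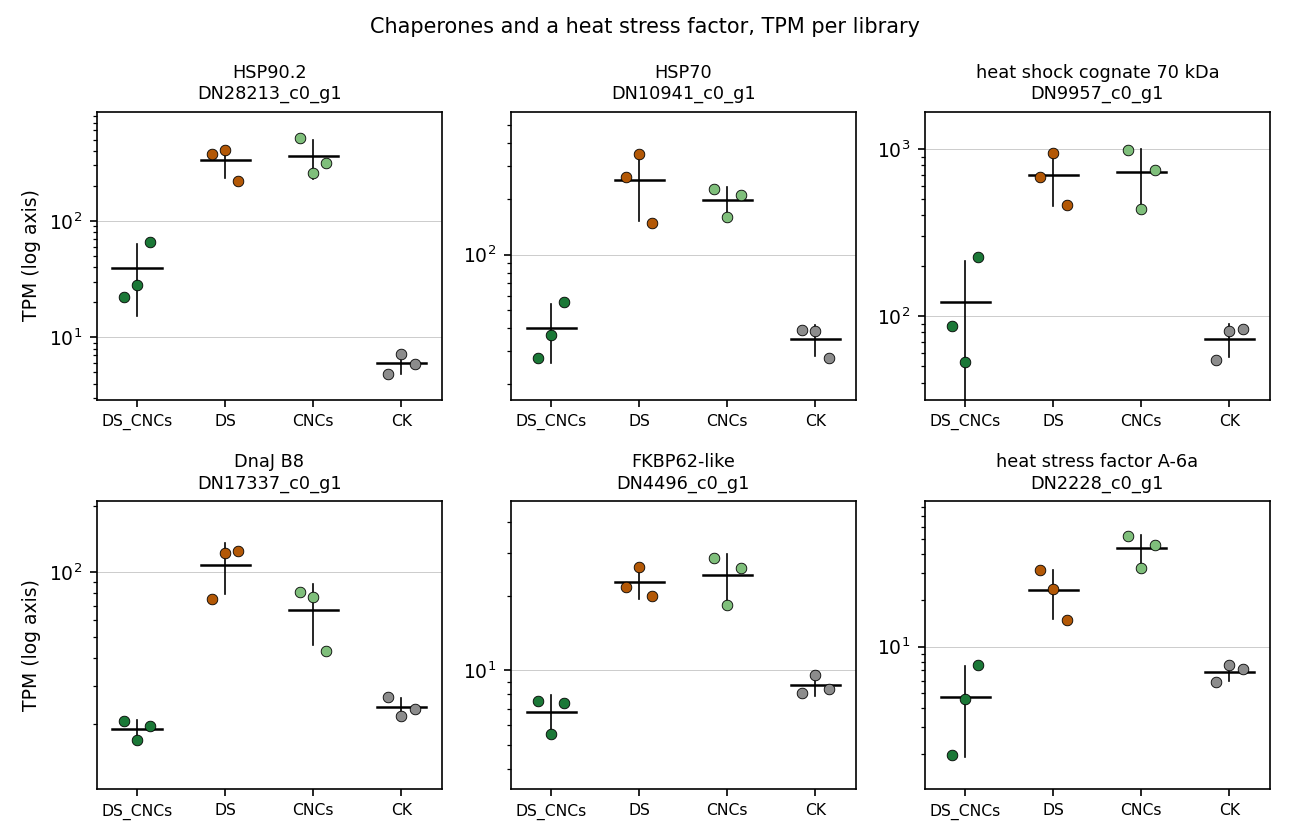
TPM on a log axis of 5 chaperones or co-chaperones and 1 HSF in DS_CNCs, DS, CNCs and CK. Points are libraries, the bar is the mean and the line ± SD (n = 3), with SD lines that run below the axis cut off. In each panel the DS and CNCs libraries lie above those of DS_CNCs and CK.

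HSFs, the factors that switch chaperone genes on, had 3 of 32 members with a negative call, none positive, and a median of -0.27. Without CK 3 only 1 call remained. That one, HSF A-6a (DN2228_c0_g1), had 1.99, 4.57 and 7.61 TPM in DS_CNCs against 31.3, 23.8 and 15.0 TPM in DS, and 52.0, 32.6 and 45.4 TPM in CNCs against 5.87, 7.57 and 7.15 TPM in CK. Both pairs were separate and crossed, and both were called: the log2 interaction was -5.37 ± 0.62 (adjusted p = 0.00366), with -2.70 (adjusted p = 0.00627) in the drought pair and 2.67 (adjusted p = 0.0347) in the watered pair. The B-class factors, most of which lack an activation domain, were less certain. HSF B-1-like (DN11133_c0_g1) gave -5.75 ± 1.12 (adjusted p = 0.0221) and lost its call without CK 1, CK 2, CK 3, CNCs 2, CNCs 3 or DS_CNCs 1 (adjusted p 0.0503 to 0.0897). HSF B-2c (DN1504_c1_g1) gave -2.17 ± 0.50 (adjusted p = 0.0393) and kept its call only without DS 3 or DS_CNCs 3 (0.0673 to 0.129 in the other 10 fits). The most abundant members were not called: a class C factor (DN13592_c0_g1) averaged 85.7 ± 17.7 TPM in DS_CNCs, 150.2 ± 72.2 TPM in DS, 88.2 ± 7.75 TPM in CNCs and 130.2 ± 11.2 TPM in CK, with a log2 interaction of -0.22 (adjusted p = 0.833), and HSF A-4b (DN2385_c0_g1) gave 0.08 (adjusted p = 0.921).

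Enzymes of the phenylpropanoid and monolignol pathway were the second large group. Of 102 tested, 30 had a negative call, none a positive one, and 88 were below 0, with a median log2 interaction of -2.81 made of -1.88 in the drought pair and 0.81 in the watered pair. Their summed level was 650 to 1122 TPM in DS_CNCs against 2073 to 4849 TPM in DS, and 1746 to 3484 TPM in CNCs against 864 to 1205 TPM in CK, without overlap in either pair. PAL, the entry enzyme, made up 19 of the 30 calls out of 38 members (median -6.11). Cinnamate 4-hydroxylase had 2 of 3 called, 4-coumarate:CoA ligase (4CL) 2 of 6, hydroxycinnamoyltransferases 2 of 9, cinnamoyl-CoA reductase (CCR) 3 of 18, and cinnamyl alcohol dehydrogenase and O-methyltransferases 1 each. These calls leaned on 1 control library: without CK 3, 2 of the 102 stayed called and none of the PAL unigenes, against up to 33 of the 102 without another library.

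The PAL unigene DN9083_c0_g1 had 63.2, 22.5 and 64.0 TPM in DS_CNCs against 746, 149.6 and 509.8 TPM in DS, and 78.4, 450.03 and 277 TPM in CNCs against 41.0, 11.9 and 22.7 TPM in CK. Within DS and within CNCs the libraries spread widely, yet both pairs were separate. Its log2 interaction was -5.70 ± 0.89 (adjusted p = 0.0106), and the drought pair alone was called at -3.22 (adjusted p = 0.0123). Another PAL, DN2318_c0_g1, averaged 53.8 ± 36.0 TPM in DS_CNCs, 354 ± 302 TPM in DS, 357 ± 191 TPM in CNCs and 24.9 ± 17.3 TPM in CK, overlapped in the drought pair and gave -6.64 ± 1.40 (adjusted p = 0.0295). CCR, which commits the pathway to lignin, had 13 of 18 members below 0 (median -0.82) and 1 call without CK 3. The CCR unigene that the study picked, DN7634_c0_g1, had a positive value without a call and is given below. The CCR unigene that stayed called, DN730_c0_g4, had 1.76, 1.28 and 1.85 TPM in DS_CNCs against 27.5, 18.6 and 11.0 TPM in DS. It had 3.83, 7.11 and 6.87 TPM in CNCs against 2.08, 2.75 and 2.31 TPM in CK. Every DS library was above every other, DS_CNCs was the lowest group, and the log2 interaction was -4.88 ± 0.52 (adjusted p = 0.00291). A 4CL, DN319_c0_g1, averaged 4.40 ± 1.32 TPM in DS_CNCs, 15.5 ± 3.13 TPM in DS, 11.8 ± 0.938 TPM in CNCs and 6.38 ± 0.610 TPM in CK, with a log2 interaction of -2.67 ± 0.39 (adjusted p = 0.00805). DN15364_c0_g1, described as a hydroxyanthranilate hydroxycinnamoyltransferase, which in oat makes the phytoalexins called avenanthramides, averaged 29.0 ± 1.39 TPM in DS_CNCs, 239.9 ± 69.5 TPM in DS, 94.0 ± 73.7 TPM in CNCs and 71.7 ± 5.02 TPM in CK, overlapped in the watered pair and gave -3.31 ± 0.53 (adjusted p = 0.0113). The calls of the CCR and the 4CL held without any 1 library, those of DN9083_c0_g1, DN2318_c0_g1 and DN15364_c0_g1 were lost without CK 3 (0.0535 to 0.103), and that of DN2318_c0_g1 also without CK 1, CK 2, CNCs 2, CNCs 3, DS 1, DS_CNCs 1 or DS_CNCs 2 (0.053 to 0.0726).

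Enzymes that tag toxic or defence compounds had negative calls in smaller numbers. Glutathione S-transferases (GSTs), which attach glutathione to reactive compounds, had 4 of 47 called negative (median -1.82) and none without CK 3. UDP-glycosyltransferases (UGTs), which attach sugars to hormones and phenolics, had 22 of 187 negative and 2 positive (median -0.88), with 2 negative calls left without CK 3. Cytochrome P450 enzymes, oxidases of many such compounds, had 7 of 150 negative and 2 positive (median -0.44), with 2 negative calls left without CK 3. GST 3, DN5720_c0_g1, averaged 123 ± 31.7 TPM in DS_CNCs, 392 ± 198 TPM in DS, 235 ± 46.2 TPM in CNCs and 103 ± 10.8 TPM in CK, with a log2 interaction of -2.98 ± 0.56 (adjusted p = 0.0202). Another GST, DN8647_c0_g1, overlapped in the drought pair but rose in the watered pair by 2.43 (adjusted p = 0.0323), and its interaction was -3.15 ± 0.53 (adjusted p = 0.013). The GSTU6 unigenes of low level, DN50861_c0_g1 and DN691_c0_g1, gave -8.33 (adjusted p = 0.0129) and -6.68 (adjusted p = 0.02).

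Among the UGTs, DN6769_c0_g1, like UGT74F2, an enzyme that glucosylates salicylate in Arabidopsis, had 0.410, 0.540 and 0.840 TPM in DS_CNCs against 9.97, 114 and 28.4 TPM in DS, and 6.02, 15.6 and 56.7 TPM in CNCs against 1.09, 0 and 0 TPM in CK. It was near 0 in DS_CNCs and CK and separate in both pairs, with a log2 interaction of -12.43 ± 2.01 (adjusted p = 0.0118). That size rests on values near 0 and is uncertain. It ran from -15.1 to -10.8 with 1 library left out. The most stable calls were UGTs of lower size: DN2803_c0_g1, described as a 7-deoxyloganetin glucosyltransferase, gave -3.57 (adjusted p = 0.00291) and UGT85F25 (DN5988_c0_g1) -2.20 (adjusted p = 0.00291), both called in all 12 fits with a library left out. So were the P450 DN2000_c0_g1, at -2.33 (adjusted p = 0.00619), and the reductase that feeds electrons to P450s, DN18911_c0_g1, at -7.58 (adjusted p = 0.00795). Without CK 3, DN5720_c0_g1, DN8647_c0_g1, DN50861_c0_g1, DN691_c0_g1 and DN6769_c0_g1 lost their calls (0.0535 to 0.0804). DN5720_c0_g1 and DN691_c0_g1 were also lost without CNCs 2 or CNCs 3 (0.0503 to 0.058), and DN691_c0_g1 without CK 2 (0.052).

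WRKY factors bind the W-box of defence genes. Of 82 tested, 17 had a negative call and none a positive one, 71 were below 0, and the medians were -2.69 for the interaction, -0.18 in the drought pair and 2.46 in the watered pair. By calls, 12 members fell and 2 rose in DS_CNCs relative to DS, and 3 rose in CNCs relative to CK. Summed over the list, the level was 719 to 4686 TPM in DS_CNCs against 2381 to 3182 TPM in DS, and 2746 to 4145 TPM in CNCs against 558 to 789 TPM in CK. The watered pair was separate, whereas DS_CNCs spanned the whole range of DS and beyond. No WRKY call remained without CK 3, and up to 29 were made without another library. The WRKY76-like DN43978_c0_g1 had 7.81, 4.86 and 42.5 TPM in DS_CNCs against 167, 36.9 and 103 TPM in DS, and 42.5, 62.5 and 58.7 TPM in CNCs against 1.03, 2.66 and 1.95 TPM in CK. CK was below 3 TPM throughout and the drought pair overlapped, so the called change was the watered one, 4.66 (adjusted p = 0.0476), and the interaction was -7.15 ± 1.17 (adjusted p = 0.012).

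Other called members were WRKY70 (DN13101_c0_g1) at -7.21 (adjusted p = 0.0122), the WRKY62-like DN4637_c0_g1 at -7.37 (adjusted p = 0.011) and WRKY41 (DN2133_c0_g1) at -6.73 (adjusted p = 0.0146), all 3 with DS_CNCs below DS and CNCs above CK in every library. The 2 most abundant WRKY unigenes were not called and illustrate the spread in DS_CNCs. DN4637_c1_g1 had 143, 19.0 and 442 TPM in DS_CNCs against 79.6, 91.6 and 169 TPM in DS, and 292, 193 and 481 TPM in CNCs against 10.5, 32.6 and 22.2 TPM in CK, where DS_CNCs 3 was far above its fellows, and its log2 interaction was -2.99 (adjusted p = 0.157). DN2746_c0_g1, described as WRKY5, gave -2.22 (adjusted p = 0.272).

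NAC factors, which act in senescence, wall formation and drought responses, had 9 of 67 negative calls and 1 positive, with a median of -1.80 (-2.08 with the floor) and 1 negative call without CK 3 (up to 18 without another library). NAC83 (DN589_c0_g1) had 13.8, 7.58 and 19.2 TPM in DS_CNCs against 34.6, 37.0 and 28.1 TPM in DS, and 20.0, 22.6 and 27.4 TPM in CNCs against 6.09, 10.9 and 8.28 TPM in CK. Both pairs were separate, and the log2 interaction was -3.14 ± 0.47 (adjusted p = 0.0091), called in all 12 fits with a library left out. NAC78a (DN15636_c0_g1) and NAC92 (DN36525_c0_g1), both under 8 TPM in all 12 libraries, gave -6.62 (adjusted p = 0.0135) and -6.58 (adjusted p = 0.0174). The most abundant members, the NAC67-like DN12114_c0_g1 and DN2091_c1_g2, were not called at -2.61 (adjusted p = 0.258) and -2.52 (adjusted p = 0.198). Without CK 3, the 4 named WRKY calls and those of NAC78a and NAC92 were lost (0.0547 to 0.0787). The single positive NAC is described with the other positive interactions.

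Receptors that sense the cell wall and its fragments had 13 of 135 negative calls, none positive, 108 below 0 and a median of -1.48, with 1 call without CK 3 and up to 22 without another library. In Arabidopsis, a malectin-domain receptor kinase senses cellulose fragments, and an L-type lectin receptor kinase binds extracellular ATP. The named calls were L-type lectin receptor kinases of low level. DN4570_c1_g3 averaged 0.773 ± 0.172 TPM in DS_CNCs, 4.87 ± 1.35 TPM in DS, 2.94 ± 0.822 TPM in CNCs and 1.36 ± 0.575 TPM in CK, with a log2 interaction of -3.83 ± 0.49 (adjusted p = 0.00484). DN16817_c0_g1, DN38609_c1_g1 and DN4570_c3_g1 gave -3.42 (adjusted p = 0.0128), -3.59 (adjusted p = 0.015) and -2.17 (adjusted p = 0.0183). The abundant FERONIA, a malectin-domain kinase, was not called: DN3928_c1_g1 averaged 51.8 ± 23.5 TPM in DS_CNCs, 49.3 ± 10.4 TPM in DS, 74.3 ± 14.0 TPM in CNCs and 32.8 ± 7.30 TPM in CK, with a log2 interaction of -1.08 (adjusted p = 0.193). The chitin elicitor binding protein DN1801_c0_g1 passed the adjusted p but not the log2 threshold, at -1.86 (adjusted p = 0.012).

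Calcium sensors and their kinases had 10 of 153 negative calls, none positive (median -0.89), with 1 call without CK 3 and up to 27 without another library. A calcium-dependent protein kinase 9-like unigene, DN2195_c0_g1, averaged 4.97 ± 1.05 TPM in DS_CNCs, 14.1 ± 2.59 TPM in DS, 5.46 ± 0.599 TPM in CNCs and 3.27 ± 0.766 TPM in CK and gave -2.41 ± 0.26 (adjusted p = 0.00291), whereas a calmodulin-binding protein, DN1842_c1_g1, changed in the watered pair, at a log2 of 3.36 (adjusted p = 0.0346), and gave -4.35 ± 0.74 (adjusted p = 0.0136). The phosphoinositide phospholipase C6-like DN1746_c1_g1, an enzyme that releases inositol phosphate and diacylglycerol signals, had 2.50, 2.10 and 1.95 TPM in DS_CNCs against 20.9, 13.1 and 18.3 TPM in DS, and 9.18, 19.3 and 9.76 TPM in CNCs against 4.68, 4.31 and 3.95 TPM in CK. It was lowest in every DS_CNCs library and separate in both pairs, with a log2 interaction of -4.50 ± 0.40 (adjusted p = 0.00241). DN4570_c1_g3, DN2195_c0_g1 and DN1746_c1_g1 held in all 12 fits. DN16817_c0_g1, DN38609_c1_g1, DN4570_c3_g1 and DN1842_c1_g1 were lost without CK 3 (0.0609 to 0.0787), DN38609_c1_g1 also without CNCs 2 and DN4570_c3_g1 also without CK 1, CNCs 2 or CNCs 3 (0.0483, there with a log2 under 2 in size, to 0.0561).

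Effectors of defence were less uniform. Pathogenesis-related proteins had 5 negative and 1 positive calls of 119 (median -0.52), with 2 negative calls left without CK 3. Disease resistance (NBS-LRR) proteins, the intracellular immune receptors, had 8 negative and 1 positive calls of 385 (median -0.47), with none left without CK 3. The negative calls of the NBS-LRR list were no larger a share than the 2.21% over all tested unigenes. A thaumatin-like protein, DN55900_c0_g1, averaged 1.92 ± 0.632 TPM in DS_CNCs, 24.9 ± 7.52 TPM in DS, 13.5 ± 4.21 TPM in CNCs and 9.44 ± 6.28 TPM in CK, with a log2 interaction of -4.23 ± 0.63 (adjusted p = 0.00858). Chitinase 8-like (DN16_c0_g1), which cuts fungal walls, gave -4.04 (adjusted p = 0.00996) with DS_CNCs below all other groups. Both held without any 1 library. The called beta-glucanases went opposite ways, DN4909_c0_g1 at -3.93 (adjusted p = 0.0117) and DN12856_c1_g1 at 2.33 (adjusted p = 0.0133), and both were lost without CK 3 (0.0532 to 0.0574). The most abundant effector, the thionin DN867_c0_g1, fell with CNCs under drought and was also lower with water: it had 275, 753 and 799 TPM in DS_CNCs against 5296, 6141 and 12699 TPM in DS, and 146, 1189.8 and 505 TPM in CNCs against 3578, 4037 and 3789.5 TPM in CK. Both pairs were separate and moved the same way, and the log2 interaction was -1.09 (adjusted p = 0.517).

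**Figure D3:**
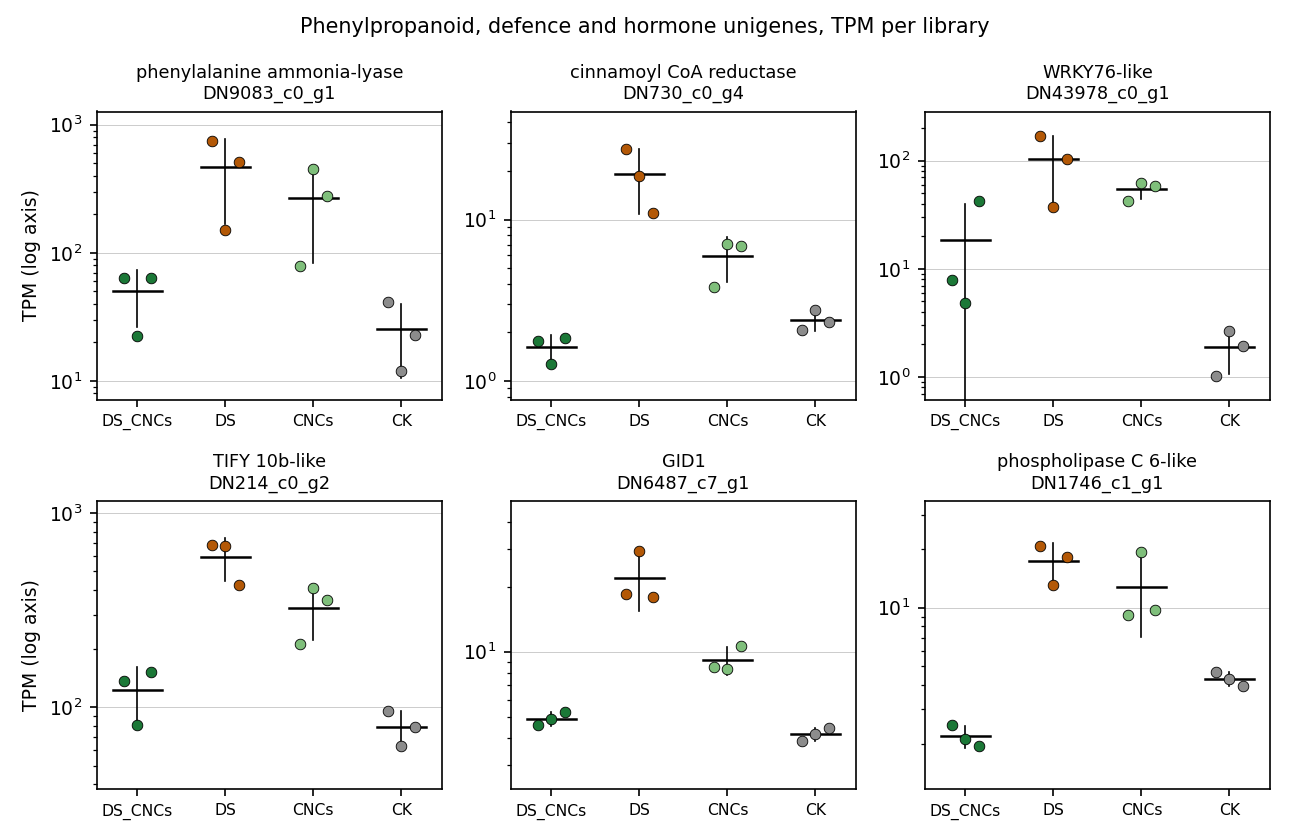
TPM on a log axis of 6 unigenes of defence and signalling (PAL, CCR, WRKY76-like, TIFY 10b-like, GID1 and PLC6-like) in DS_CNCs, DS, CNCs and CK. Points are libraries, the bar is the mean and the line ± SD (n = 3), with SD lines that run below the axis cut off. CK and DS_CNCs are low in each panel, and DS_CNCs overlaps DS only for the WRKY76-like unigene.

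Jasmonate is made from linolenic acid by lipoxygenases, allene oxide synthase and cyclase, and OPDA reductase, and its signal is damped by TIFY (JAZ) repressors, which the hormone itself induces. Of 80 tested members of this list, 13 had a negative call, none a positive one and 66 were below 0, with medians of -2.01 for the interaction, -1.10 in the drought pair and 0.71 in the watered pair, and 3 calls without CK 3 (up to 19 without another library). All 113 unigenes of the list summed to 3416 to 7680 TPM in DS_CNCs against 12241 to 16805 TPM in DS, without overlap, and 5802 to 11264 TPM in CNCs against 6077 to 7043 TPM in CK, with overlap. The calls were 6 of 19 TIFY unigenes, 4 of 31 lipoxygenases, 2 of 4 allene oxide enzymes and 1 of 15 OPDA reductases.

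TIFY 10b-like DN214_c0_g2 had 137, 80.6 and 152 TPM in DS_CNCs against 681, 680.2 and 426 TPM in DS, and 210.3, 409 and 356 TPM in CNCs against 95.9, 63.2 and 78.6 TPM in CK. Both pairs were separate, DS was above all other groups, and DS_CNCs overlapped with CK at the low end. The log2 interaction was -4.28 ± 0.53 (adjusted p = 0.00445), of which the drought pair gave -2.39 (adjusted p = 0.00585). Another TIFY 10b, DN24401_c0_g1, averaged 15.0 ± 5.94 TPM in DS_CNCs, 165 ± 37.7 TPM in DS, 82.2 ± 22.7 TPM in CNCs and 13.6 ± 7.92 TPM in CK, with a log2 interaction of -5.51 ± 0.81 (adjusted p = 0.00824), and TIFY 6a, DN14734_c0_g1, gave -3.25 (adjusted p = 0.00927). All 3 TIFY calls held in the 12 fits. Allene oxide cyclase, DN8161_c0_g1, averaged 7.43 ± 4.20 TPM in DS_CNCs, 88.3 ± 40.2 TPM in DS, 39.2 ± 22.5 TPM in CNCs and 7.38 ± 3.99 TPM in CK, with a log2 interaction of -5.48 ± 0.97 (adjusted p = 0.0158), and was lost without CK 3 (0.0692). The most abundant member, a jasmonate-induced protein homolog (DN1429_c0_g1), averaged 2798 ± 1678 TPM in DS_CNCs, 7630.01 ± 1749 TPM in DS, 3962 ± 1344 TPM in CNCs and 2778 ± 685 TPM in CK and was not called at -1.92 (adjusted p = 0.103). The sum of the whole list averaged 5505 TPM in DS_CNCs, 14229 TPM in DS, 8568 TPM in CNCs and 6515 TPM in CK. Much of that sum therefore came from this 1 uncalled unigene.

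Gibberellin genes stood out less by their median than by their calls. Of 31 tested, 7 had a negative call and none a positive one, while the median was 0.01 (-0.61 with 2 members that have a group of 0 counts set to the floor, so the sign of this median rests on them), and 3 calls remained without CK 3. Their summed level was 157 to 389 TPM in DS_CNCs against 269 to 360 TPM in DS, and 216 to 307 TPM in CNCs against 91.5 to 98.7 TPM in CK. Of the 7, 5 were gibberellin 2-oxidases, which inactivate the hormone, out of 10 tested, and 1 was the only tested GID1, the receptor. GID1 (DN6487_c7_g1) had 4.57, 4.88 and 5.27 TPM in DS_CNCs against 18.5, 29.4 and 17.9 TPM in DS, and 8.46, 8.31 and 10.7 TPM in CNCs against 3.87, 4.16 and 4.42 TPM in CK. Both pairs were separate, and the log2 interaction was -3.25 ± 0.36 (adjusted p = 0.00297). The 2-oxidases DN8351_c0_g1, DN27187_c0_g2 and DN3689_c1_g3 gave -5.07 (adjusted p = 0.00511), -3.60 (adjusted p = 0.00559) and -3.44 (adjusted p = 0.0162), the last of them lost without CK 3, CNCs 2 or CNCs 3 (0.0501 to 0.0795).

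For abscisic acid (ABA), the hormone of stomatal closure, 6 of 108 members had a negative call, none a positive one, and the median was -0.70. Without CK 3, 2 of these calls were left. Of the 6, 5 were among 78 protein phosphatases 2C (PP2Cs, median -0.84), a family whose clade A members block ABA signalling. Whether the PP2Cs named here belong to clade A was not tested. The other 30 members of the list had a median of -0.41 and 1 call, which was lost without CK 3. PP2C 27 (DN6889_c0_g1) averaged 13.7 ± 3.50 TPM in DS_CNCs, 70.1 ± 19.0 TPM in DS, 34.5 ± 10.9 TPM in CNCs and 16.8 ± 3.46 TPM in CK, with a log2 interaction of -3.20 ± 0.45 (adjusted p = 0.0073), and PP2C 48 (DN3139_c0_g1) gave -2.58 (adjusted p = 0.00806). Auxin response genes had 5 of 92 negative calls (5.43%, against 2.21% of all tested) at a median of 0.18, and 1 call without CK 3. The repressor IAA6-like DN3952_c0_g1 averaged 23.3 ± 2.01 TPM in DS_CNCs, 99.6 ± 30.4 TPM in DS, 36.5 ± 8.83 TPM in CNCs and 21.6 ± 2.78 TPM in CK, with a log2 interaction of -2.89 ± 0.40 (adjusted p = 0.00625). These 3 calls held in all 12 fits. Cytokinin genes had 3 of 45 negative calls (median 0.01) and none without CK 3. The ethylene and salicylate list had 1 of 66 (median -0.89), and that member was described as a sterol methyltransferase, an enzyme of membrane sterols rather than of either hormone. None of these 4 remained without CK 3.

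Proteins that protect dry cells had few calls. LEA proteins, dehydrins and cold-regulated proteins had 25 of 28 members below 0 (median -1.78), but only 1 call, a unigene described as a cold-responsive protein kinase and so no LEA protein, which was lost without CK 3. The list summed to 1100 to 3148 TPM in DS_CNCs against 3257 to 8352 TPM in DS, and 1686 to 2427 TPM in CNCs against 1592 to 1705 TPM in CK. The 2 most abundant were DN3211_c0_g1, with 634 ± 151 TPM in DS_CNCs, 854 ± 345 TPM in DS, 874 ± 282 TPM in CNCs and 372 ± 29.7 TPM in CK and a log2 interaction of -1.57 (adjusted p = 0.0417), under the log2 threshold, and Lea5 (DN17784_c0_g1), at -2.53 (adjusted p = 0.163). Enzymes of proline, betaine and polyamines had no call among 15 members (median -0.83). A holotricin-like glycine-rich protein, DN16074_c0_g1, named for its low adjusted p among all unigenes, gave -2.73 (adjusted p = 0.00315).

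Sugar metabolism was mixed. Of 118 fructan, sucrose and trehalose members, 7 had a negative and 1 a positive call (6.78% called, against 2.90% of all tested). The median of -0.06 equals that of all unigenes, and 1 negative call remained without CK 3. Galactinol synthases, which start the raffinose sugars that accumulate in dry leaves, were 2 of the 7. Galactinol synthase 2 (DN3555_c0_g1) averaged 9.43 ± 3.86 TPM in DS_CNCs, 57.4 ± 11.1 TPM in DS, 31.0 ± 16.6 TPM in CNCs and 7.38 ± 5.09 TPM in CK, with a log2 interaction of -4.52 ± 0.88 (adjusted p = 0.0217), and galactinol synthase 1 (DN56001_c0_g1) gave -4.95 (adjusted p = 0.0278). DN3555_c0_g1 was lost without CK 3, CNCs 2 or CNCs 3 (0.054 to 0.0888) and DN56001_c0_g1 without CK 1, CK 2, CK 3, CNCs 2, CNCs 3, DS 1, DS 2, DS_CNCs 1 or DS_CNCs 2 (0.0568 to 0.097). A cell wall invertase, DN4450_c0_g1, which splits sucrose outside the cell, had 0.870, 1.14 and 1.51 TPM in DS_CNCs against 10.6, 5.79 and 3.32 TPM in DS, and 12.3, 18.0 and 12.1 TPM in CNCs against 2.46, 7.54 and 4.35 TPM in CK. It was lowest in DS_CNCs and highest in CNCs, with a log2 interaction of -4.30 ± 0.65 (adjusted p = 0.0091) that held in all 12 fits. Starch enzymes had 1 negative call of 42 (2.38%, near the 2.21% of all tested unigenes, median -0.68) and none without CK 3.

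Nutrient transport had 6 negative calls of 151 (3.97%, against 2.21% of all tested unigenes) and a median of -0.02. There was 1 call without CK 3 and up to 10 without another library. An NRT1/PTR family 2.11-like transporter, DN828_c0_g1, a family that moves nitrate, peptides and other metabolites, had 32.5, 25.0 and 32.4 TPM in DS_CNCs against 151, 187 and 144 TPM in DS, and 40.2, 55.9 and 81.9 TPM in CNCs against 20.8, 32.0 and 25.5 TPM in CK. DS stood above the other 3 groups without overlap, and the log2 interaction was -3.67 ± 0.39 (adjusted p = 0.00291). Purple acid phosphatase 27 (DN3516_c0_g1), a family known for releasing phosphate though this member is annotated as inactive, averaged 4.91 ± 0.122 TPM in DS_CNCs, 26.3 ± 2.96 TPM in DS, 27.4 ± 5.71 TPM in CNCs and 10.6 ± 2.09 TPM in CK, with a log2 interaction of -3.74 ± 0.41 (adjusted p = 0.00291). Aquaporins, the water channels, had 1 positive call of 24 and no negative one: PIP2-7 (DN2790_c1_g1) had 14.8, 14.2 and 5.50 TPM in DS_CNCs against 0.450, 1.41 and 0.950 TPM in DS, and 4.10, 1.75 and 1.84 TPM in CNCs against 14.1, 2.82 and 8.41 TPM in CK, with a log2 interaction of 6.06 ± 1.01 (adjusted p = 0.0128). DS was the lowest group and the watered pair overlapped. These 3 calls, like that of DN16074_c0_g1, held in all 12 fits, and PIP2-7 is among the unigenes that the study picked on these samples.

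Light harvesting went the other way. Of 49 antenna proteins only 4 were below 0, and the medians were 1.43 for the interaction, -0.11 in the drought pair and -1.61 in the watered pair, so the sign came from the watered plants. A positive call was made for 2 members and a negative one for none, and the positive calls numbered 1 to 7 over the 12 fits with a library left out. The summed antenna levels given above were separate in the watered pair, with CNCs below CK, and overlapped in the drought pair. Subunits of the photosystems, cytochrome b6f and ATP synthase had only 6 of 39 members below 0 (median 0.66) and no call. The Calvin cycle (median 0.05, 30 members) and chlorophyll biosynthesis (median -0.14, 24 members) had no call.

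The called antenna proteins were of low level for their family. An LHCII type 1 protein (DN41235_c0_g2), also picked by the study on these samples, had 366, 181 and 380.1 TPM in DS_CNCs against 38.2, 55.3 and 40.6 TPM in DS, and 28.9, 13.8 and 12.7 TPM in CNCs against 90.5, 37.3 and 54.3 TPM in CK. DS_CNCs exceeded every other group and both pairs were separate. Its log2 interaction was 4.50 ± 0.69 (adjusted p = 0.00956), called in all 12 fits. Lhcb1 (DN45631_c0_g1) fell in the watered pair, at a log2 of -3.34 (adjusted p = 0.0265), and overlapped under drought, with an interaction of 3.22 ± 0.63 (adjusted p = 0.0219) that was lost without CK 3, CNCs 2 or CNCs 3 (0.063 to 0.0693). The most abundant antenna proteins were not called: LHCII type III (DN2094_c0_g2) averaged 3599.6 ± 1054 TPM in DS_CNCs, 5918 ± 784 TPM in DS, 2381 ± 682 TPM in CNCs and 5606 ± 1444 TPM in CK and gave 0.60 (adjusted p = 0.51), and chlorophyll a-b binding protein 4 (DN2319_c0_g1) gave 0.81 (adjusted p = 0.133). The photosystem II PsbR-type polypeptide DN5125_c0_g1 gave 0.43 (adjusted p = 0.391).

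Senescence genes did not move together. STAY-GREEN 1a (DN9233_c0_g1), which removes magnesium from chlorophyll as leaves yellow, averaged 0.830 ± 0.173 TPM in DS_CNCs, 3.88 ± 1.03 TPM in DS, 3.06 ± 0.314 TPM in CNCs and 0.773 ± 0.178 TPM in CK and had a negative interaction of -4.25 ± 0.57 (adjusted p = 0.00559) that held in all 12 fits. The SAG39-like cysteine protease DN8170_c0_g1 had 41.6, 31.0 and 15.3 TPM in DS_CNCs against 1.44, 1.33 and 0.340 TPM in DS, and 72.4, 108 and 50.9 TPM in CNCs against 49.5, 27.7 and 36.2 TPM in CK. It was near 1 TPM in DS and far above that in the other groups, with a positive interaction of 3.82 ± 0.73 (adjusted p = 0.021) that was lost without CK 3, CNCs 1 or CNCs 3 (0.0537 to 0.0649). Chlorophyllase-1 (DN7546_c0_g1) averaged 19.7 ± 1.50 TPM in DS_CNCs, 541 ± 246 TPM in DS, 21.4 ± 8.52 TPM in CNCs and 114 ± 68.3 TPM in CK. It fell under drought, at a log2 of -4.88 (adjusted p = 0.00226), was -2.57 with water without a call, and its interaction was not called at -2.31 (adjusted p = 0.0904).

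Among unigenes with a positive interaction, none of the lists had more than 2 positive calls. Of the 353, 261 (73.9%) had no named product, near the 68.0% of all tested unigenes. The positive unigene with the lowest adjusted p was a NAC21/22-like factor, a type that promotes lateral roots in Arabidopsis. DN9349_c1_g1 had 37.3, 53.4 and 27.7 TPM in DS_CNCs against 0.970, 1.12 and 0.980 TPM in DS, and 18.9, 9.66 and 14.2 TPM in CNCs against 18.1, 40.8 and 28.6 TPM in CK. DS was lower than every other group, with no overlap under drought and overlap with water. The log2 interaction was 6.30 ± 0.49 (adjusted p = 0.00241), made of 5.12 (adjusted p = 0.000454) in the drought pair and -1.18 (adjusted p = 0.0875) in the watered pair. The ERD15-like DN9540_c0_g1, whose Arabidopsis relative dampens ABA responses, was among the most abundant, with 543, 446 and 407 TPM in DS_CNCs against 173, 165 and 192 TPM in DS, and 299, 393 and 246 TPM in CNCs against 584, 601 and 559 TPM in CK. Both pairs were separate in opposite directions, and the log2 interaction was 2.44 ± 0.27 (adjusted p = 0.00291).

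Several positive members act in protein turnover and signalling. E3 ubiquitin ligases, which mark proteins for the proteasome, were represented by RLIM-like DN6343_c0_g1 at 2.44 (adjusted p = 0.00291) and XB3-like DN3524_c0_g2, which averaged 73.9 ± 13.2 TPM in DS_CNCs, 31.0 ± 3.90 TPM in DS, 34.9 ± 7.17 TPM in CNCs and 100.3 ± 4.31 TPM in CK, at 2.87 (adjusted p = 0.00291). DWARF 53 (DN1133_c0_g1), the repressor of strigolactone signalling in rice, averaged 39.9 ± 15.9 TPM in DS_CNCs, 4.95 ± 1.54 TPM in DS, 28.4 ± 7.39 TPM in CNCs and 28.2 ± 12.9 TPM in CK and gave 2.88 ± 0.39 (adjusted p = 0.00559), almost all from the drought pair (2.60, against -0.28 with water). The CO3-like zinc finger DN7783_c0_g1, of the CONSTANS family of day-length regulators, averaged 64.5 ± 18.7 TPM in DS_CNCs, 16.8 ± 5.90 TPM in DS, 29.2 ± 4.81 TPM in CNCs and 85.7 ± 7.45 TPM in CK and gave 3.30 ± 0.43 (adjusted p = 0.00511). The CCCH zinc finger DN119089_c0_g1 gave 4.46 (adjusted p = 0.00594), bHLH77 (DN873_c0_g1) 2.25 (adjusted p = 0.00562) and the WD repeat protein DN7382_c0_g1 2.10 (adjusted p = 0.00458). Of these 9 regulators, 7 held in all 12 fits, whereas DN7382_c0_g1 lost its call without DS 1 or DS_CNCs 2 and DN873_c0_g1 without DS_CNCs 2, with a log2 under 2 in size there (adjusted p 0.00709 to 0.0114).

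Enzymes and other proteins with a positive interaction included several of walls and redox. A lichenase (DN75596_c0_g1), which cuts the mixed-linkage glucan of grass walls, had 95.8, 49.6 and 56.0 TPM in DS_CNCs against 2.71, 5.02 and 3.15 TPM in DS, and 7.66, 4.98 and 4.32 TPM in CNCs against 63.6, 20.0 and 49.5 TPM in CK. DS and CNCs were both under 10 TPM while DS_CNCs and CK were well above, and the log2 interaction was 6.97 ± 0.84 (adjusted p = 0.00414). An expansin (DN9351_c0_g1), which loosens walls during growth, averaged 51.7 ± 39.3 TPM in DS_CNCs, 1.71 ± 0.259 TPM in DS, 7.56 ± 5.75 TPM in CNCs and 15.5 ± 3.07 TPM in CK and gave 5.99 ± 0.94 (adjusted p = 0.0108). A ferric reductase oxidase (DN24562_c1_g1), an enzyme that makes iron soluble by reducing it, had 22.7, 31.9 and 41.7 TPM in DS_CNCs against 7.54, 9.15 and 8.00 TPM in DS, and 7.98, 6.33 and 12.8 TPM in CNCs against 52.9, 64.9 and 54.2 TPM in CK. Its fall with water was called at -2.68 (adjusted p = 0.0251), and the interaction was 4.57 ± 0.52 (adjusted p = 0.00336). The NADPH oxidase DN4982_c3_g1, whose description names a superoxide-generating heavy chain, averaged 33.6 ± 17.6 TPM in DS_CNCs, 2.37 ± 0.700 TPM in DS, 11.2 ± 3.17 TPM in CNCs and 53.1 ± 17.5 TPM in CK and gave 6.02 ± 0.82 (adjusted p = 0.00605).

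A zeaxanthin cleavage dioxygenase (DN3410_c0_g1), which breaks a carotenoid, averaged 754 ± 194 TPM in DS_CNCs, 167 ± 17.4 TPM in DS, 597 ± 172 TPM in CNCs and 1160.5 ± 504 TPM in CK and gave 3.34 ± 0.41 (adjusted p = 0.00414), with overlap in the watered pair. A light-induced protein, DN8291_c0_g1, averaged 408 ± 79.3 TPM in DS_CNCs, 70.0 ± 38.9 TPM in DS, 103 ± 9.08 TPM in CNCs and 318 ± 177 TPM in CK and gave 4.23 ± 0.61 (adjusted p = 0.00805). An acetyltransferase described after the lysosomal heparan enzyme of animals, DN6034_c0_g1, gave 2.22 (adjusted p = 0.00559). All 7 of these calls, from the lichenase on, held without any 1 library.

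**Figure D4:**
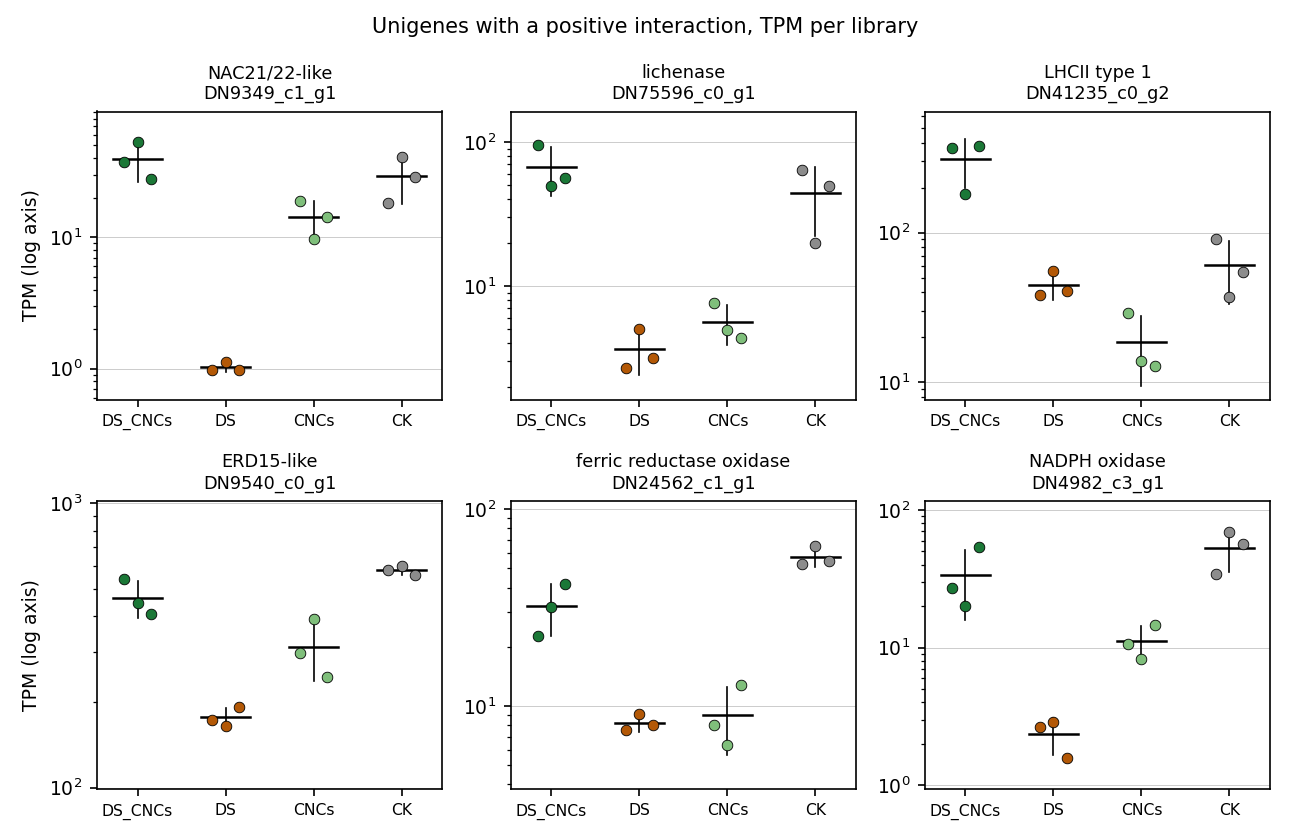
TPM on a log axis of 6 unigenes with a positive interaction in DS_CNCs, DS, CNCs and CK. Points are libraries, the bar is the mean and the line ± SD (n = 3), with SD lines that run below the axis cut off. DS lies below DS_CNCs in each panel, and except for the NAC21/22-like factor all CNCs libraries also lie below CK.

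Several groups that the treatments might touch had few calls, beside a background of 2.21% negative and 0.690% positive. AP2/ERF and DREB factors had 3 negative calls of 99 (median -0.83, or -0.59 with the floor) and MYB factors 1 of 81. With 1 library left out these counts ranged over 0 to 18 for AP2/ERF and DREB, with 0 without CK 3, and over 0 to 9 for MYB, so they depend on single libraries. There was 1 negative call among the 67 flavonoid enzymes and 1 among 203 ribosomal proteins (median -0.75), and class III peroxidases with laccases had 3 of 54 with 1 positive (0 to 7 negative calls with 1 library left out). Catalases, superoxide dismutases and the ascorbate-glutathione cycle had none of 41 (median -0.48). Lists of wall-related genes had small counts as well: cellulases and beta-glucosidases had 1 negative and 1 positive call of 54 (median 0.21), and cellulose and callose synthases 1 negative of 44. Expansins with xyloglucan and pectin enzymes had 2 of each in 58 (6.90% called, against 2.90% of all tested). Cellulases and beta-glucosidases summed to 1514 to 1853 TPM in CNCs against 3200 to 4189 TPM in CK, without overlap. In the drought pair they overlapped, at 1045 to 1966 TPM in DS_CNCs and 719 to 1191 TPM in DS. Proteases and their inhibitors had 6 negative and 2 positive calls of 269.

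Among the called members of these groups, a cellulase (DN10452_c0_g1), which cuts cellulose chains, had 5.75, 2.88 and 8.53 TPM in DS_CNCs against 23.3, 18.3 and 18.6 TPM in DS, and 10.5, 11.2 and 17.5 TPM in CNCs against 5.10, 4.54 and 5.28 TPM in CK. DS lay above DS_CNCs and CNCs above CK without overlap, and the log2 interaction was -3.53 ± 0.60 (adjusted p = 0.0134). A pectin acetylesterase (DN12940_c0_g1) gave -3.59 (adjusted p = 0.0126), a polygalacturonase (DN54449_c0_g1), which cuts pectin, -3.79 (adjusted p = 0.0146), and an anthocyanidin glucosyltransferase (DN23445_c0_g1) -6.99 (adjusted p = 0.0153). A DREB1A-like factor (DN12892_c2_g1), of a family that switches on cold and drought genes, had 11.3, 1.12 and 6.77 TPM in DS_CNCs against 19.6, 31.4 and 84.8 TPM in DS, and 7.93, 15.7 and 51.1 TPM in CNCs against 0.580, 0 and 0.580 TPM in CK. Its call (adjusted p = 0.0159) rests on 2 counts in CK, so no size is given. These 5 calls were lost without CK 3 (0.0609 to 0.069). An aspartyl protease APCB1-like unigene (DN14313_c0_g1) gave -2.54 (adjusted p = 0.00841), and another aspartyl protease (DN15083_c0_g1) was called negative (adjusted p = 0.012) on 2 counts in DS_CNCs. Both held in all 12 fits. Class III peroxidases build and loosen walls with hydrogen peroxide. Peroxidase 25 (DN20272_c0_g1) and a peroxidase 5-like unigene (DN10444_c1_g1), both under 5 TPM in all 12 libraries, gave -4.19 (adjusted p = 0.0223) and -3.92 (adjusted p = 0.0326). A laccase (DN4416_c0_g1), of a family that joins lignin units, averaged 17.9 ± 1.41 TPM in DS_CNCs, 4.95 ± 0.272 TPM in DS, 15.9 ± 9.16 TPM in CNCs and 27.9 ± 12.3 TPM in CK and gave 2.68 (adjusted p = 0.0334). Peroxidase 25 was lost without CK 2, CK 3, CNCs 1, CNCs 2, DS 1, DS_CNCs 1 or DS_CNCs 2 (0.0501 to 0.0953), the peroxidase 5-like unigene without CK 1, CK 2, CK 3, DS 1 or any CNCs library (0.0531 to 0.108), and the laccase without any 1 library but CK 2, CNCs 1 or DS_CNCs 3 (0.0569 to 0.0903).

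Markers of cell types were measured beside these results. Epidermis, cuticle and wax markers had 6 negative calls of 104 (median 0.07), among them the GDSL lipases DN1169_c0_g1 at -3.92 (adjusted p = 0.0146) and DN97093_c0_g1 at -2.37 (adjusted p = 0.0169). The list summed to 1644 to 2425 TPM in DS_CNCs against 2985 to 4281 TPM in DS, without overlap, and 2029 to 2138 TPM in CNCs against 2319 to 4841 TPM in CK, without overlap, with DS_CNCs below DS and CNCs below CK. None of the 6 calls was left without CK 3. A lipid-transfer protein of the list, DN14527_c0_g1, fell in both pairs, at a log2 of -2.62 (adjusted p = 0.0125) under drought and -3.63 (adjusted p = 0.0286) with water, and had an interaction of 1.00 (adjusted p = 0.433). Markers of dividing cells had 2 negative calls of 67 (2.99%, against 2.21% of all tested), and 0 or 1 with 1 library left out. They summed to 3039 to 4520 TPM in DS_CNCs against 3255 to 4090 TPM in DS. In the watered pair they summed to 4615 to 5361 TPM in CNCs against 3082 to 3689 TPM in CK, higher with CNCs without overlap.

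Guard cell markers had no call among 7 tested, and all 11 in the table summed to 39.4 to 54.5 TPM in DS_CNCs, 52.1 to 57.4 TPM in DS, 66.8 to 75.7 TPM in CNCs and 45.4 to 64.2 TPM in CK. Phloem markers had 1 positive call of 8, xylem markers 1 negative of 10, root markers none of 10, flower and seed markers none of 26, and transposable elements 1 positive of 118. Virus-like unigenes had no call among 12 tested, and all 22 summed to 202 to 226 TPM in DS_CNCs, 357 to 520 TPM in DS, 360 to 932 TPM in CNCs and 380 to 1424 TPM in CK, with DS_CNCs below DS without overlap. One of them, the RNA polymerase DN19034_c0_g1, had 35.1, 0 and 40.2 TPM in DS_CNCs against 364, 324 and 213 TPM in DS, and 356, 735 and 170.2 TPM in CNCs against 223, 1240.01 and 802 TPM in CK. DS_CNCs lay below DS without overlap, and CNCs overlapped with CK. No unigene was described by a fungus, and 12 from insects or mites were too low to be tested. The part of cell composition or of viruses in the interactions was not tested.

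Reference genes, not used for scaling here, had 3 negative calls of 107 (2.80%, against 2.21% of all tested, median -0.40) and none without CK 3. One was an elongation factor 1-alpha fragment, DN66041_c0_g1, at -2.57 (adjusted p = 0.0488), and the most abundant, a polyubiquitin (DN2113_c0_g1), averaged 3391 ± 1548 TPM in DS_CNCs, 2702 ± 810.3 TPM in DS, 4564 ± 374 TPM in CNCs and 2804 ± 267 TPM in CK and gave -0.31 (adjusted p = 0.746). The reference list summed to 18688 to 19786 TPM in CNCs against 11538 to 14065 TPM in CK, without overlap. In the drought pair it overlapped, at 10591 to 17278 TPM in DS_CNCs and 12329 to 15328 TPM in DS. A higher sum in CNCs than in CK was therefore not particular to the lists described above. Without CK 3 the calls of DN1169_c0_g1, DN97093_c0_g1 and DN66041_c0_g1 were lost (0.0647 to 0.156), DN97093_c0_g1 also without DS 2, where the log2 was under 2 in size (0.0299), and DN66041_c0_g1 without any 1 library but CK 2, DS 3 or DS_CNCs 3 (0.0931 to 0.156).

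**Figure D5:**
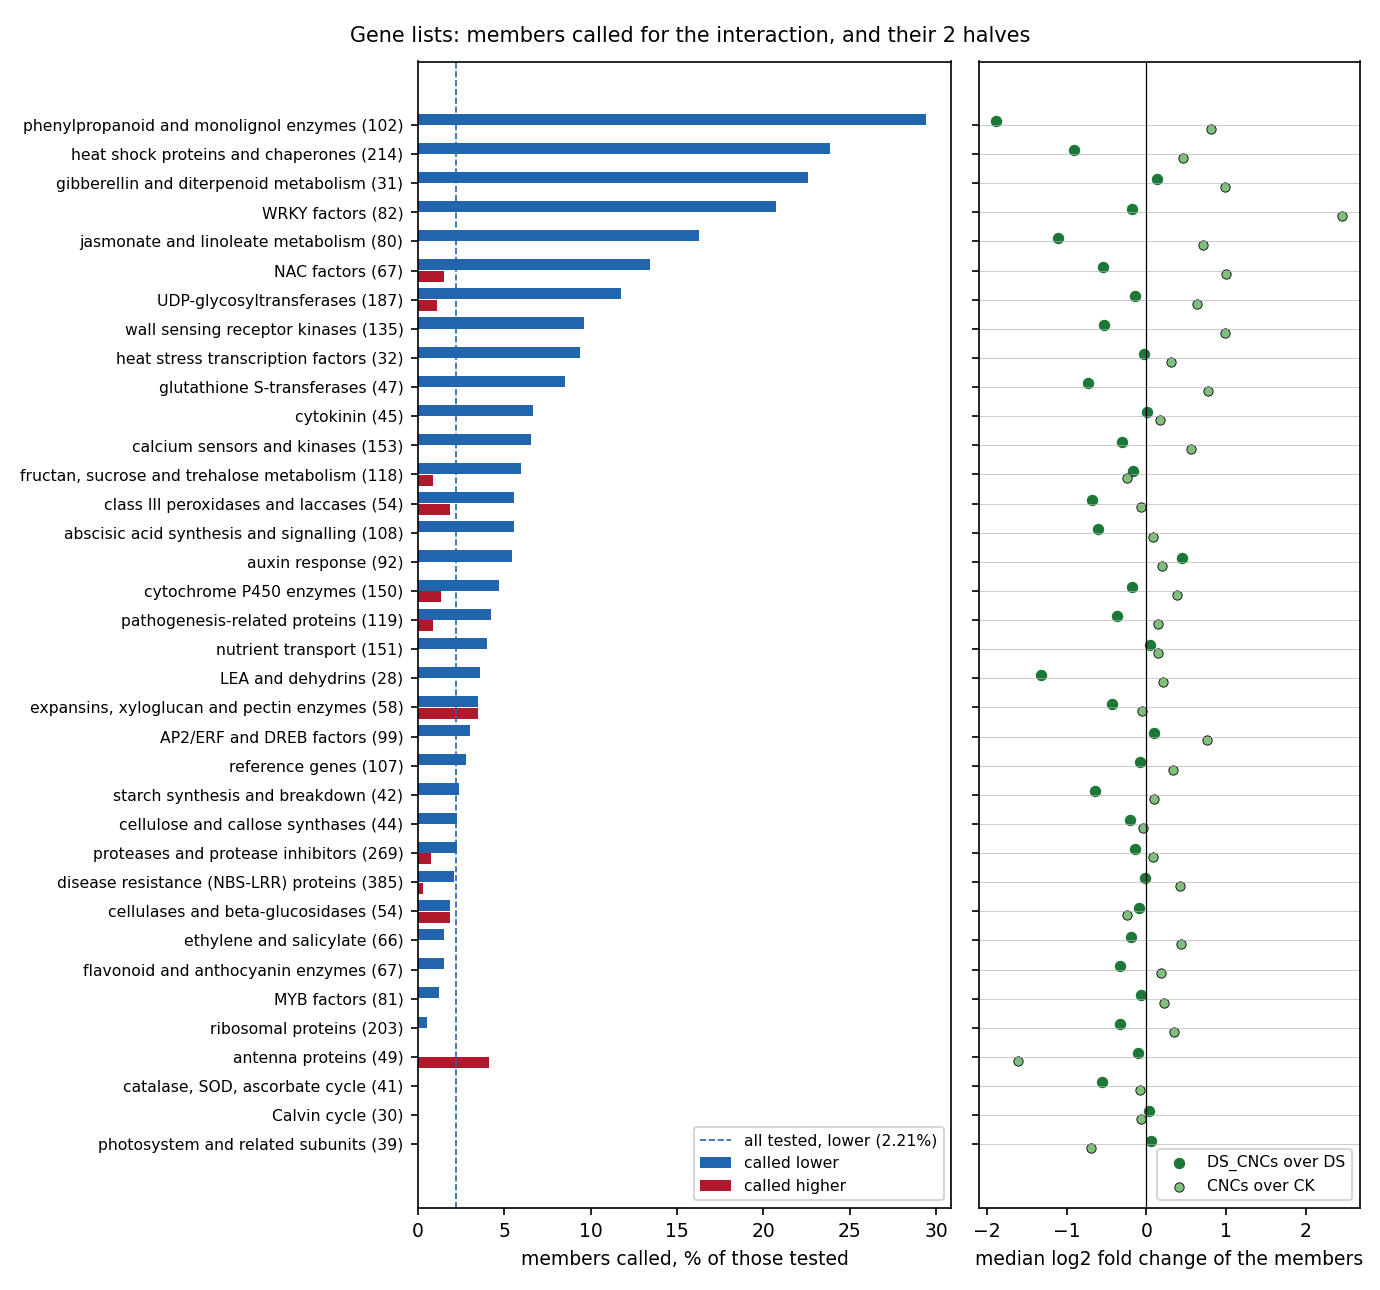
Lists of at least 25 tested unigenes. Left, percentage of members with a called negative (blue) or positive (red) interaction, with a dashed line at 2.21%, the negative share of all tested unigenes. Right, median log2 of DS_CNCs over DS (dark green) and of CNCs over CK (light green). Phenylpropanoid enzymes, chaperones, gibberellin genes, WRKY factors and jasmonate genes have the longest blue bars, and the antenna proteins have a median below -1 only in the watered pair.

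Some of the most significant unigenes had no description. DN2556_c0_g1 had 14.9, 17.8 and 13.1 TPM in DS_CNCs against 158, 146 and 117 TPM in DS, and 83.1, 79.5 and 79.4 TPM in CNCs against 123, 197 and 158 TPM in CK. It was lower with CNCs in both pairs, far more so under drought, with a log2 interaction of -2.33 ± 0.22 (adjusted p = 0.00241). DN6867_c1_g4 had 0 counts in all 6 libraries of DS_CNCs and CK, 1.04, 2.12 and 1.63 TPM in DS and 1.10, 1.85 and 1.52 TPM in CNCs, an on and off pattern at low level whose fitted size depends on the zeros (adjusted p = 0.00337). DN2723_c0_g1 averaged 30.2 ± 3.48 TPM in DS_CNCs, 5.36 ± 2.20 TPM in DS, 11.9 ± 4.79 TPM in CNCs and 9.74 ± 4.04 TPM in CK. Its log2 was 2.55 in the drought pair and 0.01 in the watered pair, and the interaction was 2.55 ± 0.28 (adjusted p = 0.00312). DN10782_c1_g1, under 3 TPM in all 12 libraries, gave 5.26 ± 0.62 (adjusted p = 0.00391). All 4 held in the 12 fits. With all 18 libraries DN2556_c0_g1 lost its call (adjusted p = 0.166). With limma on TPM, DN2723_c0_g1 (0.069) and DN10782_c1_g1 (0.0583) lost theirs.

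Of the unigenes that the study singled out on these samples, which are therefore no independent evidence, 2 had a called interaction, the PIP2-7 and the LHCII type 1 protein given above. A catalase (DN51610_c0_g1) averaged 77.0 ± 50.0 TPM in DS_CNCs, 3.42 ± 1.35 TPM in DS, 50.6 ± 42.9 TPM in CNCs and 15.8 ± 14.9 TPM in CK, rose under drought by 4.27 (adjusted p = 0.0422) and gave an interaction of 2.76 (adjusted p = 0.325). A CuZn superoxide dismutase (DN14776_c0_g1), under 5 TPM in all 12 libraries and with 0 counts in the 3 DS libraries of the deposited table, missed the threshold (adjusted p = 0.0535). An Lhcb1 unigene (DN34697_c0_g1) had 207, 10.2 and 327 TPM in DS_CNCs against 3715, 1794 and 3655 TPM in DS, and 32.7, 1466 and 63.4 TPM in CNCs against 398, 92.7 and 202 TPM in CK. DS lay above every other group, the DS_CNCs and CNCs libraries spread widely, and the interaction was -5.19 (adjusted p = 0.143). The interaction was also not called for others of this list: a cytosolic ascorbate peroxidase (DN9236_c0_g1) gave -0.72 (adjusted p = 0.281), DHAR2 (DN121132_c0_g1) -3.61 (adjusted p = 0.22), and a chloroplast atpB transcript (DN45747_c0_g2) 1.10 (adjusted p = 0.245). The cytochrome b559 subunit DN52275_c0_g2 gave 1.74 (adjusted p = 0.235) and the photosystem II polypeptide DN109843_c0_g1 -0.74 (adjusted p = 0.762).

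The rest of those unigenes also missed the call. SAUR32-like DN7007_c0_g1 gave -3.98 (adjusted p = 0.143), the CRT-binding factor DN37211_c0_g1 1.47 (adjusted p = 0.661), the ERECTA-like receptor kinase DN1598_c0_g1 1.19 (adjusted p = 0.127) and the pathogenesis-related protein DN46192_c0_g1 2.77 (adjusted p = 0.428). A beta-glucosidase 5-like unigene (DN16111_c0_g1) gave 4.81 (adjusted p = 0.0924), a CCR (DN7634_c0_g1) 1.73 (adjusted p = 0.0596), a silicon transporter (DN20900_c0_g1) -4.97 (adjusted p = 0.0776) and DN113464_c0_g1, an unnamed product in the deposited table that the study's list calls a GST, 1.36 (adjusted p = 0.796). The silicon transporter was under 4 TPM in all 12 libraries, with 1 count in DS_CNCs.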

How the data were processed

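Leaf mRNA of 12 libraries (CK, CNCs, DS and DS_CNCs, 3 each) was analysed, of 18 in the series. The authors trimmed reads with Cutadapt, assembled them with Trinity, kept the longest transcript per cluster as unigene and described unigenes by DIAMOND searches. Salmon gave the authors an estimated count per unigene and library. The 452055 non-whole values were rounded here. Levels are in TPM, the authors' Salmon values scaled for length and depth. Of 109684 unigenes, 42440 have a description. Libraries were poly(A)-selected and strand-marked.

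Counts were filtered (filterByExpr), TMM-scaled and fitted in edgeR 4.0.16 (R 4.3.3, glmQLFit and glmQLFTest) with 4 group means. P-values were adjusted by Benjamini-Hochberg over the 51194 tested unigenes, and a call needed an adjusted p below 0.05 and a log2 value above 2 in size. The script was tested on simulated data. Lists were made by words in the descriptions, and the groups of libraries, lists and tests were chosen with earlier results of these data known. The rule for naming took the 15 called unigenes per direction of lowest adjusted p that had a named product and a group mean of 10 TPM or more, in each list the 2 highest members and up to 4 called ones, the 2 undescribed unigenes with the lowest adjusted p per direction, and the study's own supplementary list. It gave 246 unigenes, of which the 133 named in the text were picked with their values known. Levels are means with SD over 3 libraries. The standard error of a log2 value was its size divided by the square root of the F value of the quasi-likelihood test. It therefore restates that test. A list's median was also taken with groups of 0 counts set to 3 counts over the group.

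Alternatives were all 18 libraries, RLE scaling, DESeq2 1.42.0, limma 3.58.1 on log2(TPM + 0.5) with at least 1 TPM in 3 libraries, no filter, only unigenes averaging 5 TPM or more, a log2 threshold of 1 or of none, a replicate block and each library left out.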

Additional observations from a re-analysis of the deposited data

Results flagged for a closer look

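The interaction tests directly whether the change with CNCs differed between droughted and watered leaves, and it did so, with calls, for 353 unigenes in the positive and 1132 in the negative direction (edgeR's quasi-likelihood test). Among the named unigenes, 5 were moreover called in both pairs in opposite directions, lower in DS_CNCs than in DS and higher in CNCs than in CK. They were HSP90.2 (DN28213_c0_g1, log2 interaction -9.09), HSP70 (DN10941_c0_g1, -5.27), HSC70 (DN9957_c0_g1, -5.73), HSF A-6a (DN2228_c0_g1, -5.37) and an undescribed unigene (DN6867_c1_g4, -17.58). The last value rests on 0 counts in DS_CNCs and in CK and is no measure of size. All 5 kept the interaction call with each of the 12 libraries left out in turn, while the watered pair had no call for any unigene without CK 3.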

How the results depend on the processing

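The 353 positive and 1132 negative interactions became 310 and 789 with all 18 libraries, 382 and 1027 with RLE, 418 and 1276 with limma on TPM, and 331 and 788 at a mean of at least 5 TPM. They became 227 positive and 779 negative without the low-count filter, 619 and 1433 at a log2 threshold of 1, and 672 and 1506 with none. DESeq2 called 4260 (1439 positive, 2821 negative), and for DS_CNCs over DS 8422 (4764 higher, 3658 lower) and for CNCs over CK 3337 (2606 higher, 731 lower). Same-numbered libraries did not deviate together (correlations -0.077 to 0.072, 4 of 12 libraries closest to their own number), so the numbers were not taken as pairs. With the replicate block, 739 interactions were called (181 positive, 558 negative), 1350 unigenes were higher in DS_CNCs than in DS, and for CNCs over CK 33 were called (24 higher, 9 lower). Leaving out 1 library at a time gave 214 to 2485 interactions (73 to 480 positive, 141 to 2033 negative), 1464 to 4291 calls for DS_CNCs over DS (654 to 2336 higher, 810 to 2242 lower) and 0 to 587 for CNCs over CK (0 to 497 higher, 0 to 94 lower). CNCs over CK had 7693 unigenes at an unadjusted p below 0.05 without CK 3, where no unigene was called. The cause of these differences was not tested. None of the 97 named calls changed sign under any setting run. Such a change was unlikely from the start, since they were called on libraries that the settings reuse. Of these 97 calls, 58 stayed called without CK 3 and 55 with every library left out. Calls were lost for 7 of the 97 with all 18 libraries, 13 with limma on TPM and 9 with the replicate block. A further setting, no low-count filter, ended 3 calls, and RLE ended 1. With 3 libraries a group, changes near the threshold are the ones most easily missed.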
